A study of Mus musculus with 6 samples.

Results

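The protein disulfide isomerase (PDI) family was examined in N2a cells after knockdown of NF-Y, through 10 of its genes. These were taken by name, with earlier results of these data known, from 16490 genes tested. The array carried 12 probes for them, all 12 of which passed the filter on low signal. The soluble members, which lie in the lumen of the endoplasmic reticulum (ER), were P4hb, Pdia3, Pdia4, Pdia5, Pdia6 and Txndc5. The membrane-bound members were Tmx1, Tmx2, Tmx3 and Tmx4. All member probes exceeded background clearly on each of the 6 arrays. After the knockdown, 9 of the 10 members had a lower signal on every YAYC array than on any Vector array. The same held for 27.1% of all genes, and 27.7% were higher on every YAYC array. Of the members, Tmx1 changed most, with a signal 2.84-fold lower, followed by Pdia4 with 1.63-fold. The soluble Pdia5 was the only member whose arrays overlapped.

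PDI proteins carry thioredoxin folds and form, break and rearrange disulfide bonds in proteins that enter the ER. Most hold a pair of cysteines in the active site, which oxidases such as the Ero1 enzymes keep oxidised, while some members act mainly as reductases or bind chaperones and hold substrates in place. The Tmx proteins carry a thioredoxin fold and are anchored in the membrane. NF-Y is a heterotrimer of NF-YA, NF-YB and NF-YC that binds CCAAT boxes in promoters, and the ER stress response element (ERSE), through which ATF6 raises ER chaperone genes, contains such a box.

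The data were 3 Vector and 3 YAYC single-colour Agilent mouse expression arrays of N2a (neuro2a) cells, a mouse neuroblastoma line. Vector cells served as the control, whereas YAYC cells received vectors that express miR RNAi against NF-YA and NF-YC. The paper names an empty vector and a non-targeting miR vector as controls. The label Vector was read as the empty vector. If so, effects of expressing any miR RNAi cannot be told apart from the knockdown. Vector and YAYC cells were transfected with a lipid reagent and carried the same vector backbone, and RNA was taken on the second day after transfection. No source used here says that the 3 samples of a group came from separate cultures, so p-values measure only the spread between these samples, which may be technical. RNA came from whole cultures of one line, and fewer cells holding a transcript cannot be told apart from less of it per cell. Signals are given as log2 of the processed intensity minus the 75th percentile of the same array, and a change is the YAYC mean minus the Vector mean on that scale. Levels of different probes are not compared.

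Across the arrays, the 75th percentile lay between 718 and 754 intensity units, and 61.9% to 66.2% of spots were well above background. Nfya changed by -0.76 (SE 0.055, limma adjusted p = 0.00128) and Nfyc by -1.81 (SE 0.045, adjusted p = 0.000323), the direction that the labels call for. Of 8 neuronal markers 7 were tested, with a mean signal of 2.87 to 2.89 on Vector arrays and 2.92 to 2.95 on YAYC arrays. That mean takes in Nefm, which lay far below it, at -5.28 over the 6 arrays. The untested Nefl had no array with signal well above background. Of 10 markers of glia, leukocytes, endothelium and fibroblasts, 9 were tested, with a mean of -3.97 to -3.96 on Vector and -4.03 to -3.98 on YAYC arrays. Cdh5 likewise had none, and Cd68 was not matched. Among them the fibroblast genes Pdgfra (1.29, adjusted p = 0.00113) and Col1a1 (-0.77, adjusted p = 0.0491) were called in opposite directions. The leukocyte gene Ptprc, at -0.52 (adjusted p = 0.0236), was the only other one of the 9 below an adjusted p of 0.05. Of the neuronal markers, 0 were called. At adjusted p alone, Stmn2 was lower (-0.25, limma adjusted p = 0.0288) and Gata3 higher (0.22, adjusted p = 0.0133). Of all genes, 15.8% were lower and 15.7% higher at adjusted p alone, and 5.00% were called lower and 3.91% higher. The part of the markers in the changes below was not tested. All arrays lay on 1 slide, with the Vector arrays and YAYC array 1 in its first row and YAYC arrays 2 and 3 in the second. Values with the slide row as a block are therefore given below, where that fit changed whether a member passed. It sets only YAYC array 1 against the Vector arrays. An effect of the row and the loss of arrays cannot be told apart by it.

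The promoters below show what the windows of 5 members hold: the 2 called members (Tmx1 and Pdia4), the only member with an exact match to the ERSE (Pdia6), the member with the most CCAAT boxes (Tmx2) and the member whose arrays overlapped (Pdia5). The choice was made after the values and matches were known. Each line is the 250 bases before the annotated start in RefSeq, build GRCm38.p6, written 5′ to 3′ on the gene's strand. Capitals mark CCAAT boxes, written CCAAT on the gene's strand and ATTGG where the box is on the other strand.
Tmx1 (chr12:70452904-70453153, plus strand): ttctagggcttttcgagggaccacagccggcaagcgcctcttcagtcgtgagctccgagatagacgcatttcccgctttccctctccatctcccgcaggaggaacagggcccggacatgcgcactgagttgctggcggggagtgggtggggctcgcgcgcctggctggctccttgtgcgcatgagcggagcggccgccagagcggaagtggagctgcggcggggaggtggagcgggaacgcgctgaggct
Pdia4 (chr6:47813513-47813762, minus strand): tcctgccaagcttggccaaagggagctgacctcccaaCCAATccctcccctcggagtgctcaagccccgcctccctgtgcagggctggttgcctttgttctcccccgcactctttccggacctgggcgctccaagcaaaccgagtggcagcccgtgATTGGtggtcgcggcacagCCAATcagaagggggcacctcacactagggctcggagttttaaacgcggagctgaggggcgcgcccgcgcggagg
Pdia6 (chr12:17266339-17266588, plus strand): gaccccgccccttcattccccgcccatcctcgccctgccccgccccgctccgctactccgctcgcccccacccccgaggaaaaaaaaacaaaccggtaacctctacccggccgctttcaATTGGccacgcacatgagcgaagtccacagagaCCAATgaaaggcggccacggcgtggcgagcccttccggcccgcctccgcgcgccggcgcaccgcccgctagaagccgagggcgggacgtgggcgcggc
Tmx2 (chr2:84678175-84678424, minus strand, the start nearer the gene body of 2 annotated): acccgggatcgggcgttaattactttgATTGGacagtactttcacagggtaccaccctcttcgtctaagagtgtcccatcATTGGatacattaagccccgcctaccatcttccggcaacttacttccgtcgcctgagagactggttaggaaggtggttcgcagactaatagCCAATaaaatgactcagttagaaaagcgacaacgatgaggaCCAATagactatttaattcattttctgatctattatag
Pdia5 (chr16:35490874-35491123, minus strand): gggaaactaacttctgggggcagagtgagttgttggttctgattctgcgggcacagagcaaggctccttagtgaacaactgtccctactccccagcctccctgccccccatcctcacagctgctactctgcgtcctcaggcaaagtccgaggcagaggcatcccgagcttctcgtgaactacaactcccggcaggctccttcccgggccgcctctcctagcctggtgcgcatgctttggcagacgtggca

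A gene was called when its limma adjusted p, by Benjamini-Hochberg over all tested probes, was below 0.05 and its fold change above 1.5. By that rule 2 of the 10 members were called lower and 0 higher, against 5.00% of all genes called lower and 3.91% called higher. At adjusted p alone, 8 members were lower and 0 higher, against 15.8% and 15.7% of all genes. The 3 arrays of each group did not overlap for 9 members, all lower in YAYC, against 27.1% of all genes lower and 27.7% higher. The median change of the 10 members was -0.33, that of all genes 0.0053. With the array median in place of the 75th percentile, the median of all genes moved to -0.11, with 1175 genes called lower and 382 higher in place of 824 and 644, and 2 members were again called lower and 0 higher. With the slide row as a block 2 members were called lower, while the count at adjusted p alone went from 8 to 3 (Tmx1, Pdia4 and Tmx2).

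**Figure D1:**
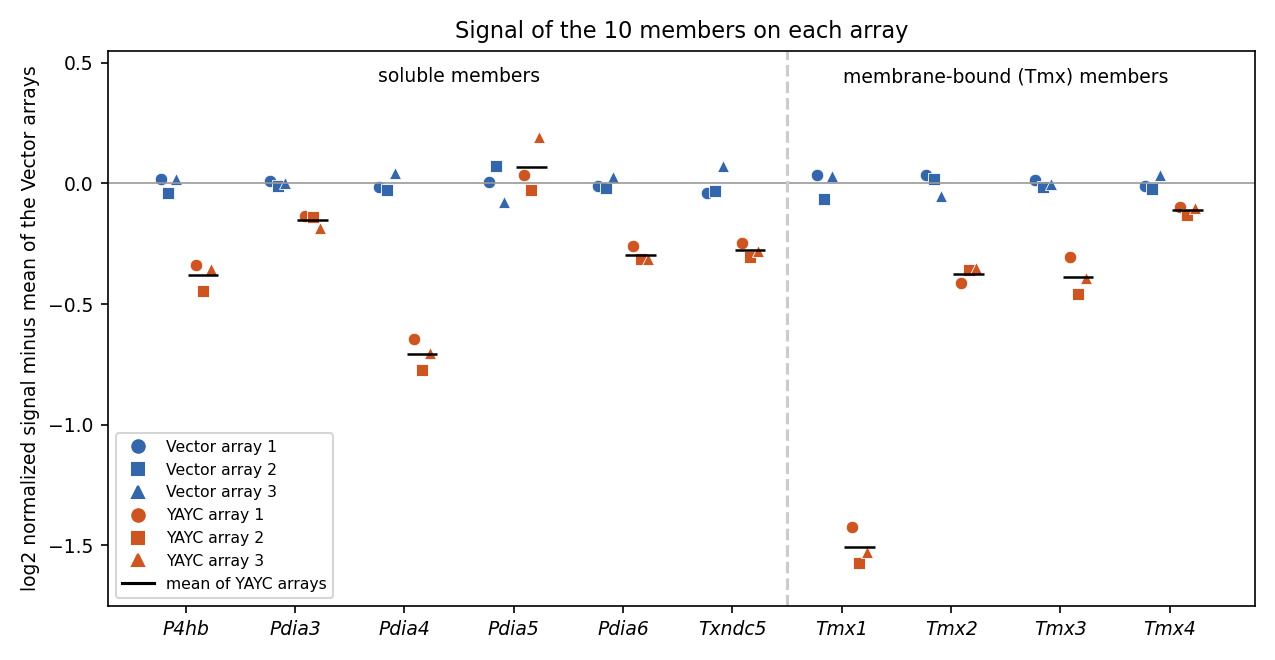
Log2 normalized signal of each member on each array, as the difference from the mean of the 3 Vector arrays (vertical axis), for the 6 soluble and the 4 membrane-bound members. Blue marks are Vector arrays, orange marks are YAYC arrays, and the black lines are YAYC means, which run from -1.51 for Tmx1 to 0.067 for Pdia5.

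Among the soluble members, Pdia4 changed most. Pdia4 (ERp72) is an oxidoreductase with several active sites that works in the ER chaperone network. Its signal was 1.16, 1.15 and 1.22 on the Vector arrays and 0.53, 0.40 and 0.47 on the YAYC arrays (probe A_51_P328300). The highest YAYC array lay well below the lowest Vector array. The change was -0.71 (SE 0.053, 95% interval -0.84 to -0.57, adjusted p = 0.00138 by limma), from 1.18 ± 0.037 to 0.47 ± 0.064 (SD, n = 3). Of all genes tested, 4.86% changed more in this direction. Pdia4 was called under 20 of 21 alternatives, with changes of -0.82 to -0.64, and the exception was a minimum fold of 2.

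P4hb, the founding PDI, also serves as the subunit of collagen prolyl 4-hydroxylase and of the microsomal triglyceride transfer protein that keeps each soluble in the ER. Its signal was 5.19, 5.13 and 5.19 in Vector and 4.83, 4.72 and 4.81 in YAYC (probe A_51_P311990). All YAYC arrays lay below all Vector arrays, but the difference was less than 1.5-fold. The change was -0.38 (SE 0.050, 95% interval -0.50 to -0.25, adjusted p = 0.00663 by limma), a signal 1.30-fold lower. With the slide row as a block it was -0.34 (adjusted p = 0.0723), and the adjusted p ran from 5.07e-05 to 0.0723 over the 21 alternatives.

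Pdia6 (P5) binds the chaperone BiP and is known to act on the stress sensors of the ER. It was read from probe A_55_P2053491, at 6.14, 6.14 and 6.18 in Vector and 5.89, 5.84 and 5.84 in YAYC. Its spread within each group was small and the groups stood apart. The change was -0.30 (SE 0.042, 95% interval -0.40 to -0.19, adjusted p = 0.00813 by limma). The other Pdia6 probe, A_51_P297968, gave a change of -0.51 (SE 0.059, adjusted p = 0.00448), from 2.71 to 2.21. The probes thus shared a direction and differed in size, and both stayed short of 1.5-fold. With the slide row as a block Pdia6 was at -0.26 (adjusted p = 0.0830), within a range of 8.74e-05 to 0.0830 over the alternatives.

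Txndc5 (ERp46), an oxidoreductase with several thioredoxin-like domains, was at 0.37, 0.37 and 0.47 in Vector and 0.16, 0.10 and 0.12 in YAYC (probe A_51_P483373). Every YAYC array lay below every Vector array. The change was -0.28 (SE 0.050, 95% interval -0.40 to -0.15, adjusted p = 0.0171 by limma), a signal 1.21-fold lower. The adjusted p was 0.137 with the slide row as a block. It was 0.050 without Vector array 2, 0.0634 without YAYC array 2 and 0.0643 without YAYC array 3, and it ran from 0.00171 to 0.137 over the alternatives.

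Pdia3 (ERp57), which works on glycoproteins with calnexin and calreticulin and sits in the MHC class I peptide-loading complex with tapasin, had the smallest change of the soluble members that were lower. Its signal was 3.52, 3.50 and 3.52 in Vector and 3.38, 3.38 and 3.33 in YAYC (probe A_66_P129730). The groups were apart, though by little. The change was -0.15 (SE 0.039, 95% interval -0.25 to -0.053), a signal 1.11-fold lower, with a limma adjusted p of 0.0482 that lay just under the threshold. It was 0.101 to 0.151 when any 1 of the 6 arrays was left out, 0.25 with the slide row as a block, and 0.00471 to 0.25 over all alternatives.

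Pdia5 (PDIr), a less studied PDI of the ER, was at 1.77, 1.83 and 1.68 in Vector and 1.79, 1.74 and 1.95 in YAYC (probe A_52_P297642). YAYC array 3 was the highest of the 6, and YAYC array 2 lay between Vector arrays. The change of 0.067 (SE 0.078, limma adjusted p = 0.594) had a 95% interval of -0.13 to 0.26, which leaves room for a small change in either direction. Its sign turned to -0.050 with the array median as the scale. Of all genes, 58.8% had a lower value than Pdia5.

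Tmx1, a transmembrane oxidoreductase that associates with calnexin and acts on membrane-bound glycoproteins, had the largest change of the 10 members. Its signal was 3.02, 2.92 and 3.02 on the Vector arrays and 1.56, 1.41 and 1.46 on the YAYC arrays (probe A_52_P651034). The YAYC arrays lay more than 1 log2 unit below the Vector arrays, while the arrays of each group lay close together. The change was -1.51 (SE 0.061, 95% interval -1.66 to -1.35, adjusted p = 0.000393 by limma), from 2.98 ± 0.058 to 1.48 ± 0.077 (SD, n = 3). It ranked 97 from the lowest of 16490 genes, and 0.582% of genes changed more in this direction. Tmx1 was called under all 21 alternatives, with changes from -1.62 to -1.39 and adjusted p from 3.37e-08 to 0.0222. With the slide row as a block, which sets YAYC array 1 against the Vector arrays of its row, the change was -1.42 (adjusted p = 0.0115).

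The 3 genes whose signals lay closest to those of Tmx1 over the 6 arrays, each centred on its own mean, were Cd164, Zfp952 and Eogt. The Euclidean distances were 0.076, 0.087 and 0.087 log2 units, and the changes were -1.526, -1.499 and -1.504. Cd164 encodes a sialomucin, Zfp952 a zinc finger protein, and Eogt an ER enzyme that puts N-acetylglucosamine on EGF domains.

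Tmx2, a transmembrane member whose active site departs from the usual pair of cysteines, was at 4.50, 4.48 and 4.41 in Vector and 4.05, 4.11 and 4.11 in YAYC (probe A_55_P2052495). The groups did not overlap. The change was -0.37 (SE 0.046, 95% interval -0.49 to -0.26, adjusted p = 0.00557 by limma), a signal 1.30-fold lower. The other probe, A_55_P2023777, gave -0.31 (SE 0.043, adjusted p = 0.00741), so the probes were close in size. With the slide row as a block the change was -0.41 (adjusted p = 0.0445), and the adjusted p of Tmx2 ran from 3.60e-05 to 0.0450 over the alternatives.

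Tmx3, a transmembrane oxidoreductase, was at 0.15, 0.13 and 0.14 in Vector and -0.17, -0.32 and -0.25 in YAYC (probe A_55_P2064230). Its Vector arrays were close to each other and its YAYC arrays were spread more widely, all below them. The change was -0.39 (SE 0.054, 95% interval -0.52 to -0.25, adjusted p = 0.00784 by limma), a signal 1.31-fold lower. With the slide row as a block it was -0.31 (adjusted p = 0.0685), within a range of 0.000353 to 0.0685 over the alternatives.

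Tmx4, a transmembrane member close to Tmx1 in domain layout, was at 2.45, 2.44 and 2.49 in Vector and 2.36, 2.33 and 2.36 in YAYC (probe A_51_P319379). The groups did not overlap, but the gap between them was small. The change of -0.11 (SE 0.041, 95% interval -0.21 to -0.0068) had a limma adjusted p of 0.120. It passed at adjusted p alone under 2 of the 21 alternatives, with a variance trend (0.0361) and with the mean of a gene's probes (0.0442). In the latter its change was the same -0.11, and p was adjusted over genes in place of probes. With the slide row as a block the change was -0.098.

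**Figure D2:**
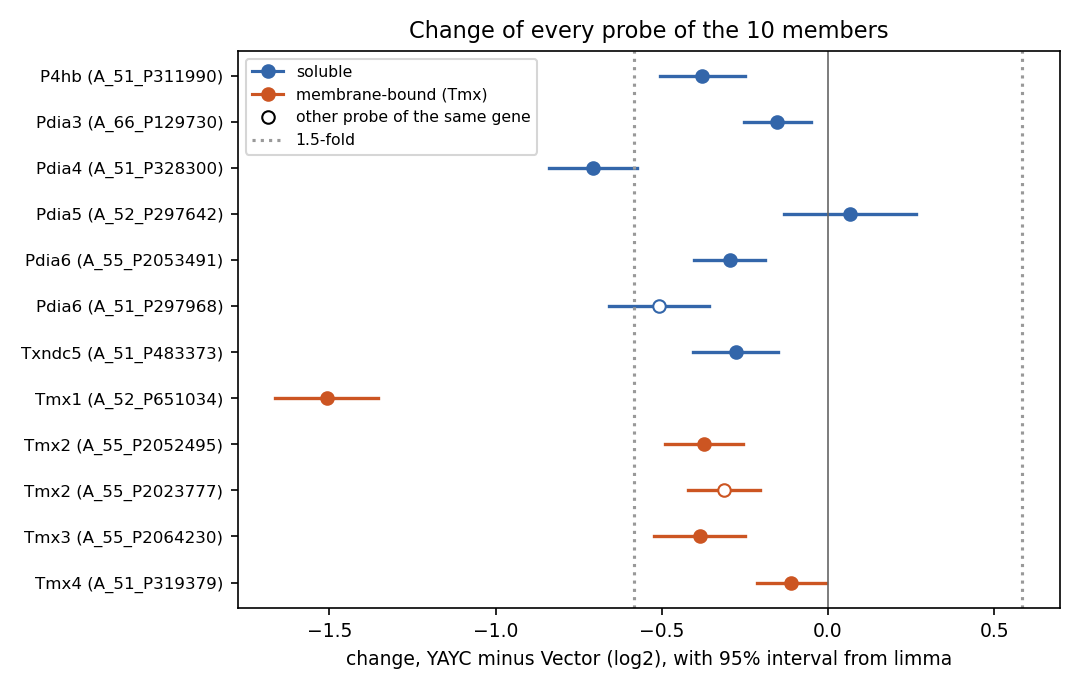
Change of each of the 12 member probes on the log2 scale (horizontal axis, YAYC minus Vector) with its 95% interval from limma. Filled marks are the probes a gene was read from, open marks are other probes of the same gene, and the dotted lines mark a 1.5-fold difference. Tmx1 stands apart at -1.51, the point for Pdia4 lies past the 1.5-fold line, and the interval of Pdia5 spans 0.

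By location, both classes held 1 called member. Of the 6 soluble members 5 were below 0 and 1 was called lower, and of the 4 Tmx members 4 were below 0 and 1 was called lower. At adjusted p alone 5 soluble and 3 Tmx members were lower. Of all genes, 49.2% were below 0, 5.00% were called lower and 15.8% were lower at adjusted p alone. The median change was -0.29 for the soluble members (range -0.71 to 0.067) and -0.38 for the Tmx members (range -1.51 to -0.11). Tmx1 lay below every soluble member, while Tmx2, Tmx3 and Tmx4 all lay inside the range of the soluble ones. On single arrays, the median deviation of the soluble members from their Vector means was -0.25, -0.31 and -0.29 on YAYC arrays 1, 2 and 3, and that of the Tmx members was -0.36, -0.41 and -0.37. YAYC array 2 was thus the lowest for both classes, and the Tmx median was below the soluble median on each of the 3 arrays. With the mean of a gene's probes in place of 1 probe a gene, the median changes lay closer, at -0.33 for the soluble and -0.36 for the Tmx members. With 6 and 4 genes that share all arrays, no test of the difference between the classes was made.

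**Figure D3:**
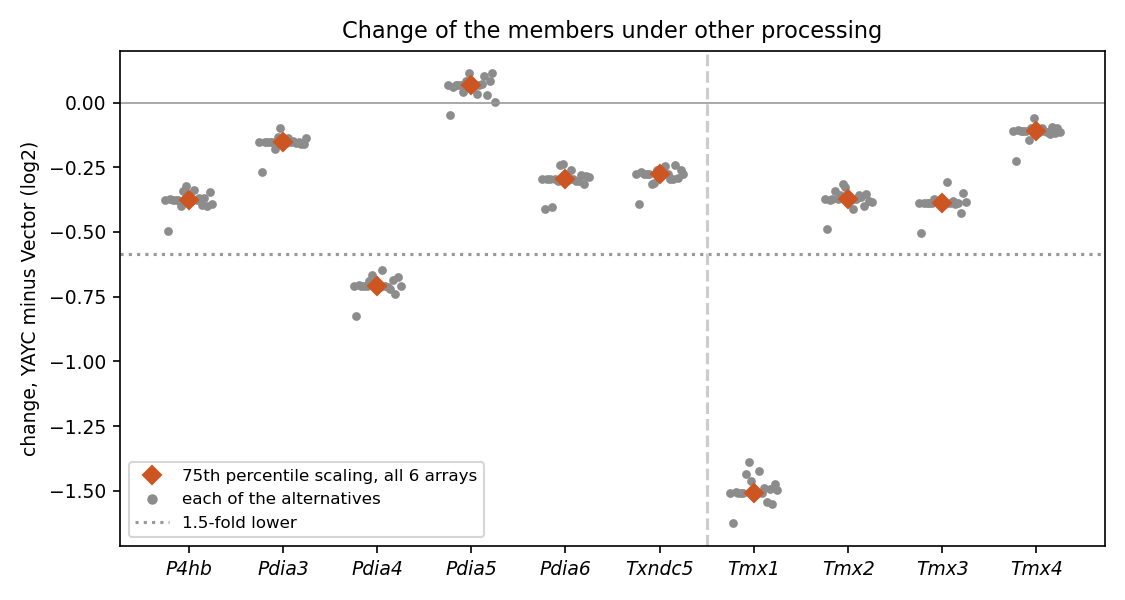
Change of each member (vertical axis, log2, YAYC minus Vector) under the scaling used throughout (orange diamonds) and under the alternatives (grey points), with a dotted line at 1.5-fold lower. Of the 21 alternatives, those that altered only the minimum fold are not drawn, since they leave the change as it is. Tmx1 and Pdia4 lie past the line at every point drawn, and Pdia5 is the member whose points lie on both sides of 0.

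In the promoter windows, from 250 bases before to 50 after each annotated start, CCAAT was found on either strand in 37.4% of 32851 windows in RefSeq and in 42.6% of the 13098 tested genes that have a window. Of the 10 members 9 had a window, and 6 of them held at least 1 CCAAT box. Those were P4hb, Pdia3, Pdia4, Pdia6, Tmx2 and Tmx4. Pdia4 had 3 boxes, with first bases 213, 94 and 75 bases before the start. Tmx2 had 5 in 1 of its 2 windows, at 223, 170, 79 and 38 bases before the start and 1 just after it, a number of boxes (at least 4) held by 1.06% of all windows. Pdia3 had boxes at 79 and 29, Tmx4 at 245 and 194, and P4hb at 14.

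Tmx1, the member that changed most, had no CCAAT in its window, and neither did Pdia5 or Txndc5. The 3 members without a box spanned changes from -1.51 to 0.067, and the 6 with one from -0.71 to -0.11, so the ranges overlapped. Among tested genes with a window, 55.8% of those called lower and 36.5% of those called higher held a CCAAT.

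The ERSE, searched as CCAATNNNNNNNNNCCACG, was in 39 windows, or 0.119% of all, and in 1 member window, that of Pdia6, where it began 98 bases before the start. Its CCAAT end is the second capital run of the Pdia6 sequence above. ERSE-II, searched as ATTGGNCCACG, was in 0.0365% of windows and in 0 members. The core of the unfolded protein response element (UPRE), searched as TGACGTGG, was in 0.676% of windows and in 1 member, Txndc5, at 138 bases before 1 of its 3 starts. All motifs were searched on both strands, and the ERSE contains a CCAAT by construction. Only exact matches were counted, so a member without a match can still hold a stretch that differs by a base. A match describes letters in a window, not binding.

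**Figure D4:**
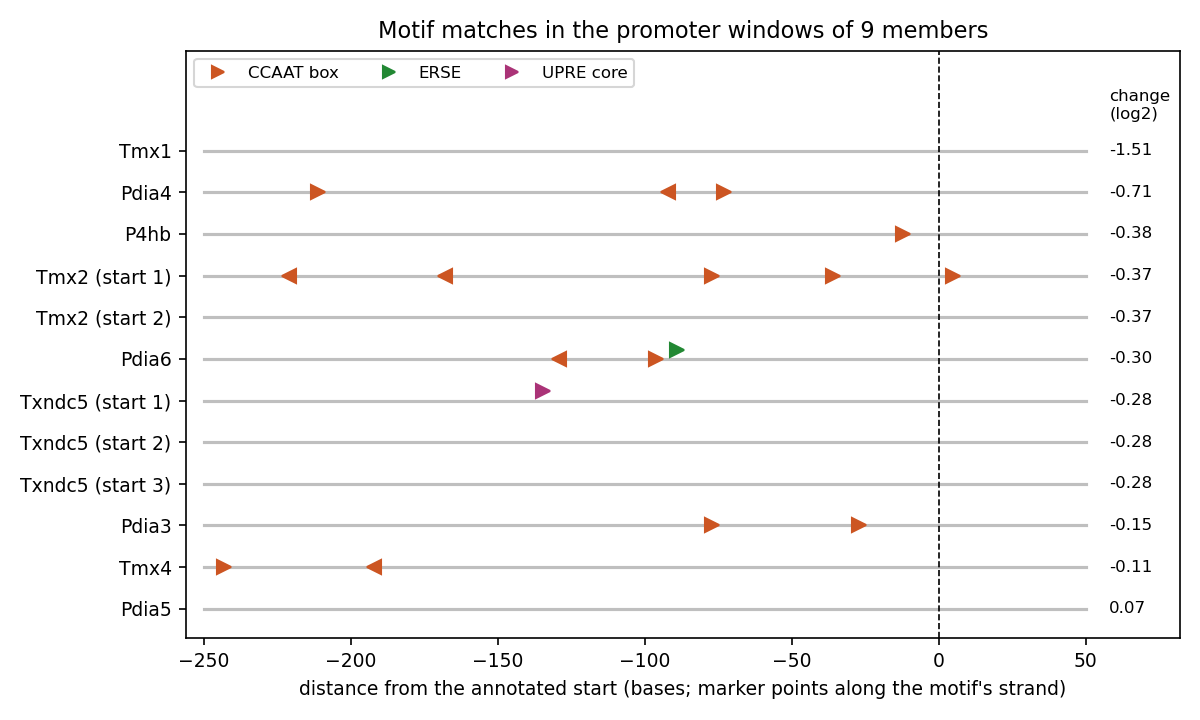
Motif matches in the promoter windows of 9 members, ordered by the change printed at the right (log2, YAYC minus Vector); the horizontal axis is the distance in bases from the annotated start, and markers point along the strand of the motif. Boxes are spread over the windows of 6 members, Tmx2 has 5 at its start 1, and the Tmx1 line is empty.

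Other genes of the family and of its pathway were set beside the members. Of 12 further PDI family genes 10 were tested, and 0 were called in either direction, with a median change of -0.069 and a range of -0.29 to 0.41. Dnajc10, a reductase of the ER-associated degradation pathway, was at -0.29 (adjusted p = 0.0367 by limma), but its other probe was at -0.08 (adjusted p = 0.342). Erp44, which retrieves clients from the early secretory pathway, was at -0.22 (adjusted p = 0.0226) and Txndc11 at -0.21 (adjusted p = 0.0281). Txndc15, a membrane protein with a thioredoxin domain, was higher by 0.41 (adjusted p = 0.00775). These 4 were the ones below an adjusted p of 0.05, 3 lower and 1 higher against 15.8% and 15.7% of all genes, and all were under 1.5-fold. Agr3 and Pdilt, which were not tested, had no array with signal well above background.

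Of 9 genes of ER thiol oxidation 8 were tested, with a median change of -0.31, 1 called lower (5.00% of all genes), 0 called higher (3.91%) and 4 lower at adjusted p alone (15.8%). Ero1b, an oxidase that reoxidises PDI, was the one called. Its signal was -0.93, -0.95 and -1.02 in Vector and -2.17, -2.18 and -2.04 in YAYC. The groups lay more than 1 log2 unit apart, a change of -1.17 (SE 0.059, adjusted p = 0.000558 by limma). Its paralogue Ero1a was at -0.28, -0.29 and -0.02 in Vector and -0.71, -0.95 and -0.56 in YAYC, with a change of -0.55 (SE 0.13, adjusted p = 0.0399). Vector array 3 was the highest for Ero1a, and its spread was wider than that of Ero1b. Qsox1, a sulfhydryl oxidase of the secretory pathway, changed by -0.50 (adjusted p = 0.00591), and Prdx4, the ER peroxiredoxin, by -0.25 (adjusted p = 0.0335). Of the 8 genes, 7 were below 0 and 1, Vkorc1, was above. Its brighter probe was at 0.15 (limma adjusted p = 0.119) and the other at 0.24 (limma adjusted p = 0.0248). Both were higher on every YAYC array than on any Vector array.

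Of 8 partners and enzymes that contain or work with a PDI, all 8 were tested, with a median of -0.11, 2 called lower and 0 higher, against 5.00% and 3.91% of all genes. The 2 were P4ha1 and P4ha2, the catalytic subunits of collagen prolyl 4-hydroxylase that pair with P4hb. P4ha1 was at -0.59, -0.86 and -0.72 in Vector and -1.74, -1.79 and -1.61 in YAYC, a change of -0.99 (SE 0.090, adjusted p = 0.00226 by limma), and its other probe was at -0.96 (adjusted p = 0.00385). P4ha2 was at 5.43, 5.40 and 5.47 in Vector and 4.81, 4.73 and 4.89 in YAYC, a change of -0.62 (SE 0.057, adjusted p = 0.00229). Both subunits were lower on all YAYC arrays. The third subunit gene, P4ha3, was at 0.13 (adjusted p = 0.588) with its brighter probe and at 0.38 (adjusted p = 0.00456) with the other. The lectin chaperones that work with Pdia3 and Tmx1 did not pass, with Canx (calnexin) at -0.20 (SE 0.054, adjusted p = 0.0553) and Calr (calreticulin) at -0.12 (SE 0.052, adjusted p = 0.178). Tapbp (tapasin) was at -0.01 (SE 0.051) and Mttp, the partner of P4hb in lipid transfer, at -0.11 (SE 0.083).

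**Figure D5:**
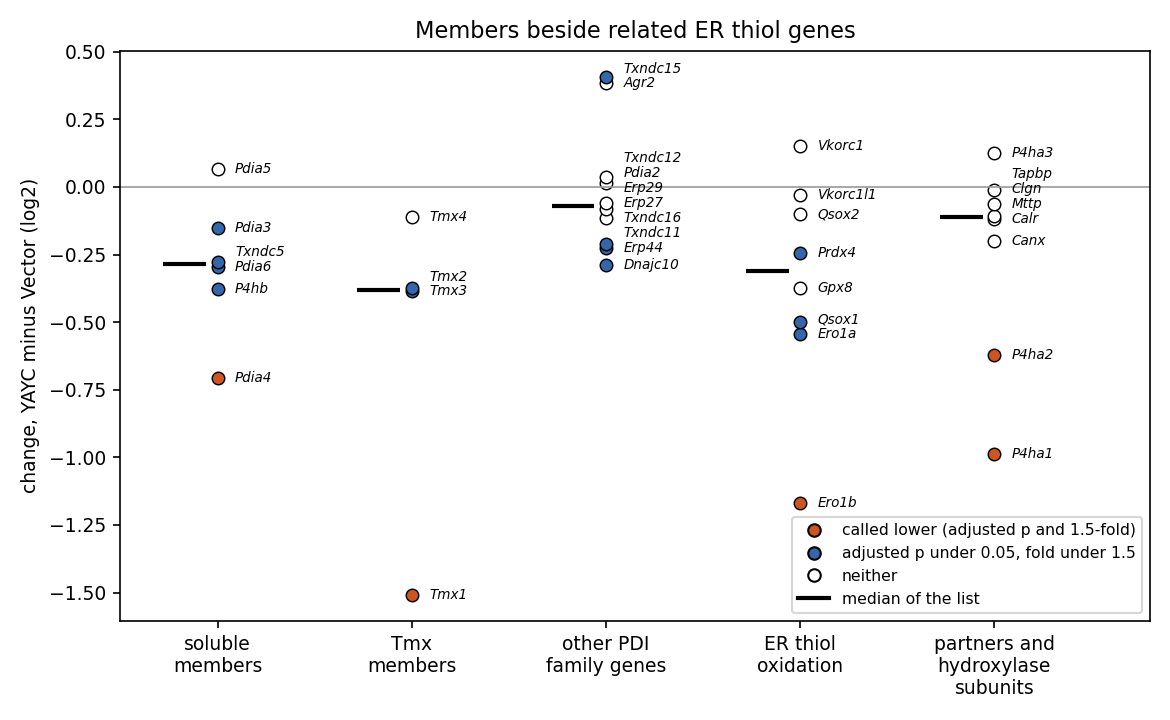
Change (vertical axis, log2, YAYC minus Vector) of every tested gene of the 2 member classes and of the 3 related lists, 1 point a gene, with the black line at the median of each list. Orange points were called lower, blue points passed the adjusted p but not 1.5-fold, and open points passed neither. Tmx1, Ero1b and P4ha1 lie lowest, and the medians run from -0.38 for the Tmx members to -0.069 for the other PDI genes.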

How the data were processed

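Each array was scanned and read with Agilent Feature Extraction 10.10.1.1 by the authors, and the deposited scanner tables give a background-corrected processed intensity per spot. The deposited series matrix holds log2 values whose scale and centring are not stated. Between arrays they differed by at most 0.0076 from log2 intensity scaled to the 75th percentile, over 43742 probes with 1 spot. Per the paper's methods, the authors used GeneSpring GX and left out genes below the 20th percentile. The array annotation names build mm9.

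Control spots and outlier spots were left out. The log2 intensity minus the 75th percentile of the array was averaged over the spots of a probe. Of 55681 probes, 245 lacked a value on an array, and 42126 reached the 20th percentile on all 3 arrays of at least 1 group. Accessions were matched to RefSeq (GRCm38.p6), which named 26582 probes. A gene was read from its brightest tested probe. Groups came from the sample titles and were compared by two-sided limma tests (version 3.58.1, under R 4.3.3; lmFit, eBayes, no covariate, Benjamini-Hochberg over all probes). The procedure was run on simulated data with independent noise for each probe. These held no shared effect of array, slide row or culture, so they say nothing of such effects. Promoter sequences and starts came from RefSeq, and the array gives no depth, so the 3 arrays per group limit the precision.

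The members and lists were chosen with earlier results of these data known. All 10 members, Nfya and Nfyc are named with values, as are the called genes of 3 related lists and the 3 genes closest to the member that changed most. Genes of those lists that were not called, and the marker genes, were named after their values were seen. The 21 alternatives covered scaling, background correction, filters, blocks, variance models, probe summary, thresholds and leaving out each array. The fit on the mean of a gene's probes adjusted p over genes in place of probes. Normexp with an offset of 50 was run on the median spot signal in place of the mean.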

Additional observations from a re-analysis of the deposited data

How the results depend on the processing

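Over 21 alternatives, 2 members were called lower in all but 2, with 8 when no minimum fold was set and 1 with a minimum fold of 2, and 0 were called higher in any. The median change of the soluble members was -0.25 with quantile normalization, -0.40 with the array median as the scale, -0.25 with the slide row as a block and -0.33 with the mean of a gene's probes. The median of the Tmx members was -0.50 with the array median, -0.35 with normexp and quantile normalization and -0.36 with the mean of a gene's probes. The array median shifted the median of all genes to -0.11, and with it Pdia5 turned to -0.050 (limma adjusted p = 0.744). With the slide row as a block, the soluble median was that of YAYC array 1, which shares its row with the Vector arrays. With the mean of a gene's probes, Pdia6 went from -0.30 to -0.40 and Tmx2 from -0.37 to -0.34. The other members kept their change. The cause of the remaining moves was not tested. Genes called lower and higher over the whole table were 824 and 644, against 1175 and 382 with the array median, 557 and 286 with normexp and quantile normalization, 584 and 278 with normexp and the 75th percentile, 286 and 181 with a minimum fold of 2, and 2602 and 2597 with no minimum fold. Deviations of same-numbered arrays from their group means correlated at 0.018, 0.067 and 0.0025 over probes, and those of pairs with unlike numbers at -0.081 to 0.063. With 3 arrays per group, these correlations cannot decide whether same-numbered arrays shared a culture or day. Array numbers throughout are those of the sample titles, and the deposited files number the Vector arrays and YAYC array 3 differently, so the replicate block rests on the titles. The 2 pairs that share a number in the files correlated at -0.0042 and 0.0025. With the replicate block 2 members were called lower, the soluble and Tmx medians were -0.29 and -0.38, 5 of the 8 members passed at adjusted p alone in place of 8 (Pdia3, Pdia6 and Txndc5 did not), and 765 and 518 genes were called lower and higher. Leaving out 1 array in turn left 2 members called each time and 6 to 7 at adjusted p alone.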
